A study of Mus musculus with 11 samples.

Results

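This comparison set sorted epidermal cells that carried a T-lineage tracer against cells from the same gate that did not, within the cells that stained for CD49f and CD34 but not for Sca-1. Its members were the libraries that the labels name as tdT+ or tdT- in the Sca-1neg gate, which gave 6 of the 11 bulk RNA-seq libraries of the series. The tdT+ group had 3 libraries and the tdT- group had 3. The mice were CD4Cre R26-tdT males on a C57Bl6/N background and the cells came from their dorsal skin, so both groups carried the Cre driver and the reporter allele. The CD4 promoter drove Cre, and a cell that had once expressed it, and its progeny, made tdTomato. Thermolysin released the epidermal cells, FACS sorted them, with 2 mice pooled per library. The mice behind replicate 1 of either group were 29 weeks old, and those behind replicates 2 and 3 were 32 weeks old. The tracer follows a driver and not present identity, so a tdT+ cell is a cell with a history of CD4 promoter activity or of Cre expression from that transgene. Nothing in the labels ties the pools of a group to separate cultures or sorts beyond the replicate number. The p-values thus measure a spread between libraries, which the main edgeR fit pooled over all 11 libraries of the series.

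As background, CD49f and CD34 together mark the bulge of the mouse hair follicle, where slow-cycling stem cells sit that rebuild the follicle at each hair cycle, and basal cells of the surface epidermis and upper follicle carry Sca-1. CD4 is made during T cell development in the thymus, also by cells that later lose it, so a CD4 driver marks most αβ T cells. Mouse epidermis holds resident T cells beside keratinocytes, many of them with a γδ receptor, along with Langerhans cells.

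The libraries did not sort cleanly by the tracer. The tracer entry, given as CPM, its count scaled by the total count of the library, stood at 133 CPM in tdT+ replicate 1, at 2.05 CPM in the library labelled tdT+ replicate 2 and at 252 CPM in tdT+ replicate 3. In tdT- replicates 1, 2 and 3 it stood at 3.78, 2.54 and 2.80 CPM. The library labelled tdT+ replicate 2 thus lay below every tdT- library, with 37 tracer counts of 18042009 and an exact Clopper-Pearson interval of 1.44 to 2.83 CPM at 95%, which covers counting error only. The group means were 129 ± 125 CPM in tdT+ and 3.04 ± 0.655 CPM in tdT- (SD, n = 3 each), which is a description, since the cells were sorted on tdT. Depth ran from 18042009 to 24764941 counts in tdT+ and from 39364902 to 46542177 counts in tdT-, so at an equal CPM a gene had fewer counts in tdT+.

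A second split ran across both groups. Alb, the main plasma protein of hepatocytes, reached 9564, 4393 and 37.3 CPM in the tdT+ libraries and 3.04, 6099 and 5.0 CPM in the tdT- libraries, in order of replicate number, as are all values below. The level of Xist, an RNA made from the inactive X chromosome of female cells, was 418, 1318 and 1.27 CPM in tdT+ and 1.05, 211 and 1.20 CPM in tdT-, although all mice are labelled male. The Y-linked gene Ddx3y had 81.3, 39.4 and 125 CPM in tdT+ and 126, 61.4 and 128 CPM in tdT-. The same 3 libraries were high in both Alb and Xist, namely tdT+ replicate 1, the library labelled tdT+ replicate 2 and tdT- replicate 2. These 3 had the lowest Ddx3y levels of the 6, but held Ddx3y beside Xist. All 6 libraries were rich in the transcripts of CD49f and CD34, which the gate required. Itga6, which encodes CD49f, had 387, 547 and 566 CPM in tdT+ and 615, 512 and 548 CPM in tdT-. Cd34 had 468, 735 and 842 CPM in tdT+ and 864, 638 and 1130 CPM in tdT-, and Krt15, a keratin of bulge cells, had 6274, 6312 and 9217 CPM in tdT+ and 9280, 9868 and 11555 CPM in tdT-. Cd4 itself was near nothing in both groups, at 1.13, 0.0536 and 1.21 CPM in tdT+ and 0.227, 0.661 and 0.293 CPM in tdT-.

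**Figure D1:**
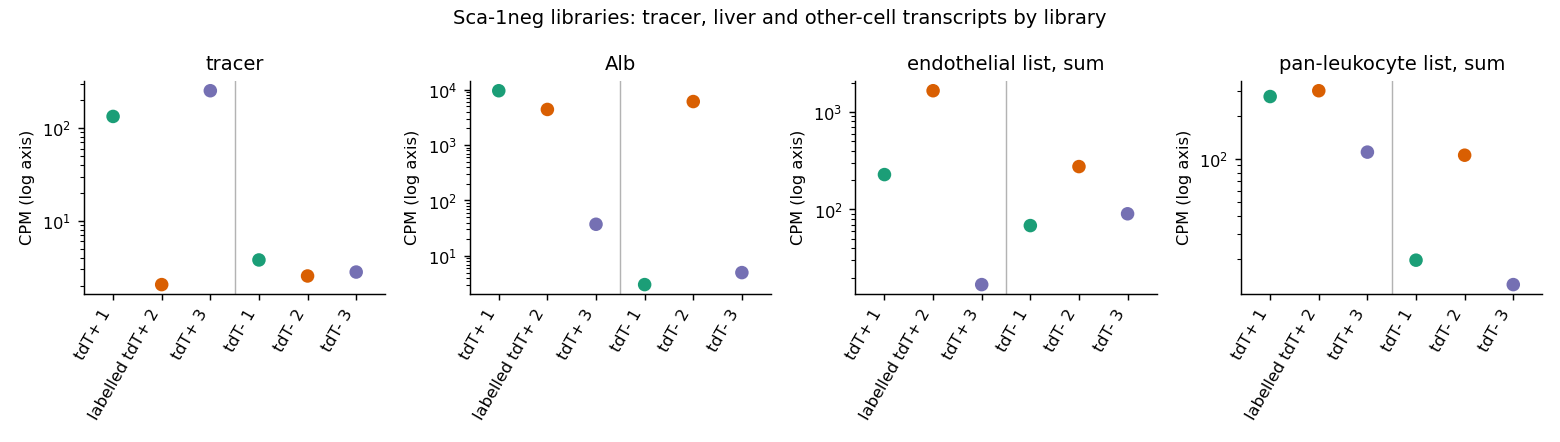
CPM on a log axis in each Sca-1neg library for the tracer, for Alb, and for the summed endothelial and pan-leukocyte lists, tdT+ to the left of the line and tdT- to the right, with colour giving the replicate number. The library labelled tdT+ replicate 2 has a tracer level of 2.05 CPM, and its endothelial sum of 1652 CPM is the highest of the 6.

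Genes were tested with edgeR's quasi-likelihood test on the counts, with Benjamini-Hochberg adjustment over all genes and a threshold of 0.05. Of 20307 genes tested, 13 passed (0.064%), with 11 higher in tdT+ (0.0542%) and 2 lower (0.00985%). The genes that rose were 9 leukocyte or T cell genes, the surface antigen gene Ly6d and the receptor gene Ahr, and the genes that fell were Pappa and Ampd3. At an unadjusted p under 0.05 there were 1691 genes (8.33%), of which 907 were higher (4.47%) and 784 lower (3.86%). In counts of genes whose groups did not overlap the balance ran the other way, with 1029 genes higher in all 3 tdT+ libraries (5.07%) and 2223 lower (10.9%). The Sca-1+ libraries enter the fit through the shared spread. With only the Sca-1neg groups in the fit, 0 of 17975 genes tested passed, and 1441 had an unadjusted p under 0.05. In a bulk library, more cells of a type and more RNA per cell cannot be told apart, which holds for every gene below.

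A T cell receptor gene passed the threshold at a low level in tdT+ and below 1 CPM in tdT-. Cd3e, which encodes the CD3 epsilon chain of the T cell receptor complex (chr9:44998740-45009627, mm10), had 3.49, 7.87 and 6.39 CPM in tdT+ and 0.661, 0.317 and 0.829 CPM in tdT-. It rose by 3.28 ± 0.46 on the log2 scale (SE), with an adjusted p of 0.0404. Every tdT+ library lay above every tdT- library, and the highest value was in the library labelled tdT+ replicate 2, whose tracer level was that of tdT- libraries.

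Surface receptors of resident and cytotoxic lymphocytes followed. Cd7, an immunoglobulin-family antigen of T and NK cells (chr11:121036747-121039418), had 4.12, 8.25 and 8.38 CPM in tdT+ and 1.30, 0.978 and 0.976 CPM in tdT-, with a log2 fold change of 2.66 ± 0.34 and an adjusted p of 0.0252. Cxcr6, the receptor for the chemokine CXCL16 found on tissue-resident T cells (chr9:123806475-123811760), had 4.03, 3.70 and 4.13 CPM in tdT+ and 0.847, 0.396 and 0.561 CPM in tdT-, with a log2 fold change of 2.70 ± 0.37 and an adjusted p of 0.0345. Its tdT+ values differed little among themselves, whatever the tracer or Alb level. Jaml, an adhesion molecule of epidermal γδ T cells that binds a keratinocyte ligand (chr9:45079183-45108534), had 3.13, 1.55 and 1.93 CPM in tdT+ and 0.207, 0.238 and 0.268 CPM in tdT-, with a log2 fold change of 3.19 ± 0.45 and an adjusted p of 0.0391. Cd163l1, a receptor with scavenger receptor cysteine-rich domains (chr7:140218267-140231145), had 1.13, 2.57 and 2.59 CPM in tdT+ and 0.124, 0.211 and 0.0976 CPM in tdT-. Its log2 fold change of 3.83 ± 0.47 was the highest of the 13 (adjusted p 0.0252). At these levels a few counts per library carry the tdT- values.

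Regulators shared by many leukocytes made up the rest. Akna (chr4:63367125-63403354), an AT-hook protein known in lymphocytes and at the centrosome, had 13.7, 11.3 and 6.78 CPM in tdT+ and 0.765, 1.19 and 0.805 CPM in tdT-. It had the lowest adjusted p, 0.00975, with a log2 fold change of 3.52 ± 0.34. Cytip, a scaffold that binds cytohesin in blood cells (chr2:58129137-58195532), had 8.25, 10.1 and 3.69 CPM in tdT+ and 0.888, 0.555 and 0.512 CPM in tdT-, with a log2 fold change of 3.48 ± 0.42 and an adjusted p of 0.0252. Ikzf1, the zinc finger factor Ikaros of lymphocyte development (chr11:11685003-11772926), had 3.85, 8.57 and 4.57 CPM in tdT+ and 0.661, 1.03 and 0.512 CPM in tdT-, with a log2 fold change of 2.94 ± 0.40 and an adjusted p of 0.0345. For Akna and Cytip the lowest tdT+ value was in replicate 3, the library with the most tracer. Of the 11 genes that rose, 2 were highest in tdT+ replicate 1, 4 in the library labelled tdT+ replicate 2 and 5 in tdT+ replicate 3, and 8 averaged under 10 CPM in tdT+.

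**Figure D2:**
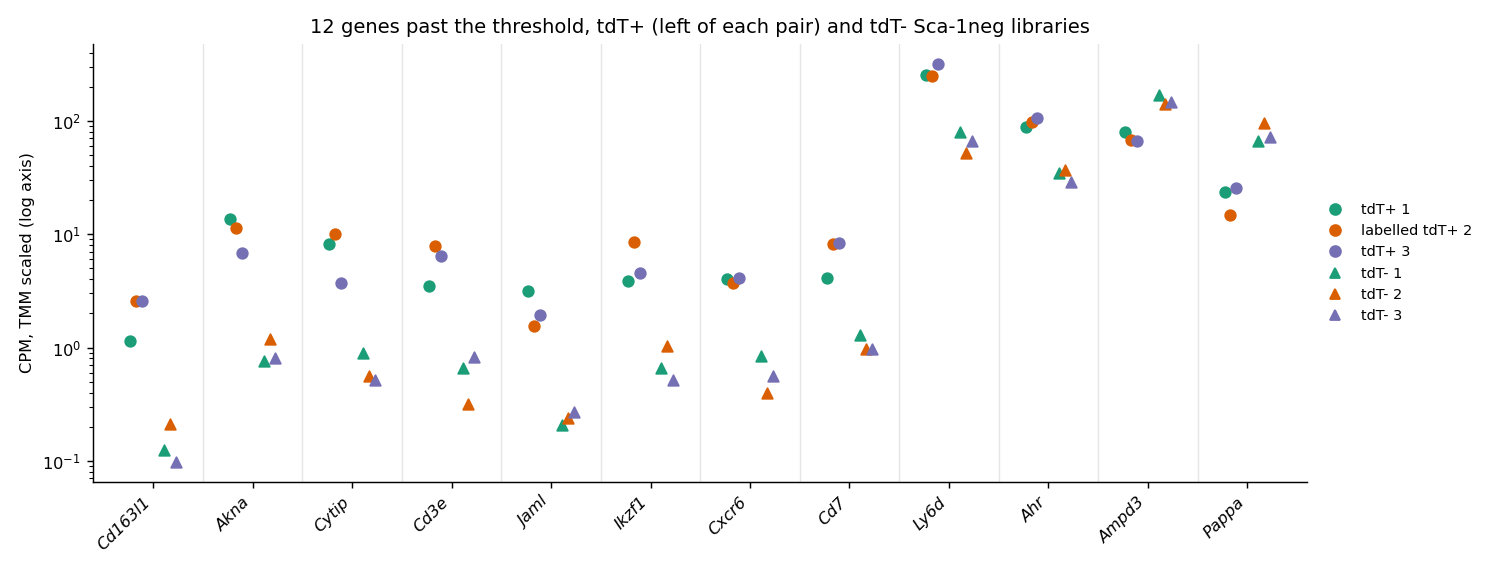
CPM scaled by TMM on a log axis for 12 of the 13 genes past the threshold, with tdT+ libraries as circles to the left and tdT- libraries as triangles to the right of each pair, coloured by replicate number. For each of the 12 genes the 3 tdT+ values lie wholly above or wholly below the 3 tdT- values.

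RefSeq start-site windows (GRCm38.p6, 250 bases before to 50 after each start) were found for 8 of the 13 genes, in 12 windows. Ly6d, Ahr, Cd7 and Pappa had none. The windows of 5 leukocyte genes that moved together are printed 5′ to 3′ on the gene's strand, with capitals marking matches, on either strand, to a short motif. The letters TGTGGT were searched for the RUNX family of factors, the letters AGGAAG for the ETS family, the letters AGATAA for the factors of the Gata family, and the letters GCGTG for the response element of the aryl hydrocarbon receptor (XRE).
Akna, chr4:63403396-63403695, minus strand: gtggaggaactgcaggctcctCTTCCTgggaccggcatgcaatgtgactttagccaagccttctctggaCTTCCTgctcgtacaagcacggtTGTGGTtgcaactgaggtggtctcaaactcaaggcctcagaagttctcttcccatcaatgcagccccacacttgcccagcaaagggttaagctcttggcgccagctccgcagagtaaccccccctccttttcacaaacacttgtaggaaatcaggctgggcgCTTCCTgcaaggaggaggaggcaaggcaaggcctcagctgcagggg
Cytip, chr2:58160073-58160372, minus strand: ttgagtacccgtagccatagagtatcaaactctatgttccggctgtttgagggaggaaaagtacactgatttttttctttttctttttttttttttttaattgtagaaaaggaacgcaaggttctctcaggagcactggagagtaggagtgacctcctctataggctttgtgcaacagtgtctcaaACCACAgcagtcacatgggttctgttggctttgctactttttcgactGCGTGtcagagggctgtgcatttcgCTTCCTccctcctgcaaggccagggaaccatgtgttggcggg
Cd3e, chr9:45009562-45009861, minus strand: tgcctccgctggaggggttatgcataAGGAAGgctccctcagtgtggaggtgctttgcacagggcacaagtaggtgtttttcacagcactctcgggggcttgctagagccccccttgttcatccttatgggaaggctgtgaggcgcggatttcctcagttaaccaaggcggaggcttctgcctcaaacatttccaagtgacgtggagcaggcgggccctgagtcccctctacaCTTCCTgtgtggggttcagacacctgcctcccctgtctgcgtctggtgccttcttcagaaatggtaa
Cxcr6, chr9:123806227-123806526, plus strand: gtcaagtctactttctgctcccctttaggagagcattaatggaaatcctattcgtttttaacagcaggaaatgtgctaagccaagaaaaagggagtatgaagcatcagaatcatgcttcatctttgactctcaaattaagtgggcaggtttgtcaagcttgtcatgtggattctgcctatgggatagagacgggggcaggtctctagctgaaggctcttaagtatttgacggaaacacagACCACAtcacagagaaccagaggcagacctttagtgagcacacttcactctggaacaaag
Jaml, chr9:45078933-45079232, plus strand: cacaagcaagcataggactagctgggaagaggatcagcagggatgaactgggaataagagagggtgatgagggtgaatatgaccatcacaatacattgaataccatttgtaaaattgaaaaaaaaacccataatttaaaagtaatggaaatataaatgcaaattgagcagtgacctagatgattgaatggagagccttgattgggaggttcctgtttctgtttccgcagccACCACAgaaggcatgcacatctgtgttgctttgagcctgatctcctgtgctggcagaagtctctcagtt
RUNX letters were in 5 of the 12 windows, against 16.8% of all 32851 mouse windows of this length, and ETS letters in 6 of 12, against 35.4%. XRE letters were in 3 of 12, against 32.4%, and those of the Gata family in 2 of 12, against 11.2%. These counts include a window of Ampd3, a gene that fell, which held RUNX, ETS and Gata letters. The other window of Akna and the windows of Cd163l1 and Ikzf1 are not printed and held no RUNX letters, so the printed windows overstate their share. Some genes have several windows, no base fell in 2 motifs, and a match is a description of these letters and not a binding site.

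Lists of marker genes were counted beside the shares over all genes. Those shares were 4.47% higher and 3.86% lower at an unadjusted p under 0.05 in edgeR, and 2.24% called by DESeq2 and 1.69% by voom, and every list count below is to be read against them. Of 23 tested genes of the T cell receptor and its signalling, 22 were higher in tdT+, with a median log2 fold change of 2.59, against -0.0275 over all genes, of which 47.3% were higher, and 2 passed the threshold, Cd3e among them. DESeq2 called 12 of them and voom 0, where 13 had an unadjusted p under 0.05. Groups did not overlap for 14 of them in the higher direction (5.07% of all genes). The CD3 delta gene Cd3d had 3.49, 2.41 and 1.98 CPM in tdT+ and 0.248, 0.211 and 0.293 CPM in tdT- (adjusted p 0.0781). Constant regions of the receptor chains did not all move alike. Trac, the constant region of the receptor's alpha chain, had 1.81, 1.45 and 3.25 CPM in tdT+ and 0.331, 0.106 and 0.0732 CPM in tdT- (adjusted p 0.0781). Trdc, the constant region of the delta chain, had 4.53, 9.16 and 13.3 CPM in tdT+ and 1.55, 0.159 and 1.07 CPM in tdT- (adjusted p 0.186, chosen after its values were seen). For Trac and Trdc the groups did not overlap. Trbc2, a constant region of the beta chain and the list's only member with a negative log2 fold change, had 6.34, 6.11 and 3.31 CPM in tdT+ and 6.74, 7.93 and 8.68 CPM in tdT-, lower in all 3 tdT+ libraries (adjusted p 0.737, chosen after its values were seen). Cd8b1, a coreceptor chain of cytotoxic αβ T cells, behaved otherwise, with 0.227, 0.214 and 3.47 CPM in tdT+ and 0.124, 0.0529 and 0.195 CPM in tdT- (adjusted p 0.573, also chosen after its values were seen), so that tdT+ replicate 3 alone stood apart. Ptprcap was listed at 0 in all 6 libraries.

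Of the 20 cytotoxic and epidermal T cell effector genes, 19 were higher, the median log2 fold change was 2.72, and 4 passed (Cd7, Cxcr6, Jaml and Cd163l1). DESeq2 called 14 and voom 2. The summed level of the list was 57.2, 84.4 and 62.7 CPM in tdT+ and 10.9, 17.7 and 7.56 CPM in tdT-, so the groups did not overlap. Itgae, the integrin chain that holds T cells to epithelial E-cadherin, had 9.11, 10.4 and 7.33 CPM in tdT+ and 2.11, 1.11 and 0.756 CPM in tdT- (adjusted p 0.0788). The granzyme gene Gzmb did not keep to the groups, with 2.27, 0.161 and 0.882 CPM in tdT+ and 0.0827, 1.74 and 0.439 CPM in tdT-. Among the 23 tested regulators of T cell lineage and residency, 13 were higher and the median was 0.47, which was 0.00995 without the library labelled tdT+ replicate 2 and -0.00393 without the 3 libraries with high Alb. None passed in edgeR, where 6 had an unadjusted p under 0.05, while DESeq2 called 4 and voom 2. Of these, Runx3, a factor of CD8 and epidermal T cells, had 5.67, 5.84 and 6.67 CPM in tdT+ and 1.76, 3.07 and 1.29 CPM in tdT- (adjusted p 0.144). Cd69, a retention marker of resident T cells, had 1.54, 1.23 and 4.41 CPM in tdT+ and 0.145, 0.502 and 0.0732 CPM in tdT- (adjusted p 0.155). Ctla4 was listed at 0 in all 6 libraries.

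All 20 pan-leukocyte genes were higher in tdT+, with a median of 2.30, and 3 passed (Akna, Cytip and Ikzf1). DESeq2 called 8 and voom 12. The sum over the list was 273, 299 and 111 CPM in tdT+ and 19.6, 106 and 13.2 CPM in tdT-. The tdT- library with high Alb, replicate 2, thus came close to the lowest tdT+ library. Ptprc, which encodes the leukocyte phosphatase CD45, had 52.0, 41.6 and 27.3 CPM in tdT+ and 2.56, 19.5 and 1.61 CPM in tdT- (adjusted p 0.541). Without the 3 libraries with high Alb, Ptprc had an adjusted p of 0.00622 and a log2 fold change of 3.70, where the spread of the 1 tdT+ library left is taken from the other groups. With the summed hepatocyte list as a covariate, Ptprc had a log2 fold change of 2.09 and an adjusted p of 0.0899 by edgeR. What brought the liver transcripts, and its part in these levels, was not tested.

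Ly6d and Ahr, the other genes that rose, had far higher levels than the leukocyte genes. Ly6d, a GPI-anchored surface protein of stratified epithelia that is also made by early B-lineage cells (chr15:74762056-74763620), had 251, 249 and 318 CPM in tdT+ and 79.7, 52.4 and 66.8 CPM in tdT-. The log2 fold change was 2.04 ± 0.22 and the adjusted p 0.0183. Ahr, the ligand-activated receptor for aryl hydrocarbons, which keratinocytes and skin T cells both make (chr12:35497974-35535038), had 88.3, 98.0 and 105 CPM in tdT+ and 34.9, 36.5 and 29.1 CPM in tdT-. It rose by 1.54 ± 0.19 on the log2 scale, with an adjusted p of 0.0252. For both genes the gap between the groups was wider than the spread within either, and the library labelled tdT+ replicate 2 lay with the other tdT+ libraries. The paralogs of the Ly6 locus are alike in sequence, and how reads mapping to several places were counted is not given in the sources used here.

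Known targets of Ahr did not pass. Cyp1a1, the classic induced target, had 6.57, 0.643 and 0 CPM in tdT+ and 0.434, 0.344 and 0.0244 CPM in tdT- (adjusted p 0.721). Cyp1b1 had 151, 90.7 and 264 CPM in tdT+ and 138, 83.7 and 129 CPM in tdT- (adjusted p 0.735). Ahrr, another target, had 1.54, 0.536 and 0.331 CPM in tdT+ and 0.165, 0.396 and 0.122 CPM in tdT-, with overlapping groups. Its unadjusted p was 0.0389 by edgeR and its adjusted p 0.586. Ahr and Ahrr were the 2 genes of the receptor's axis with an unadjusted p under 0.05. Of the 10 genes of the receptor's axis tested, 7 were higher, with a median of 0.18 (0.37 without the library labelled tdT+ replicate 2 and 0.47 without the 3 libraries with high Alb), and only Ahr passed. In the Ly6 family, 8 of 10 tested genes were higher, the median was 1.34 and Ly6d passed. Without the library labelled tdT+ replicate 2, 5 of 10 were higher with a median of 0.0779, and without the 3 libraries with high Alb the median was 0.26. Ly6a, which encodes Sca-1 itself, had 27.6, 59.2 and 9.64 CPM in tdT+ and 5.74, 2.46 and 2.90 CPM in tdT-. All 3 tdT+ libraries thus lay above the tdT- libraries of a gate sorted as negative for its product. The adjusted p was 0.207 by edgeR, 9.08e-07 by DESeq2 and 0.0387 by voom. Its log2 fold change was 3.11 with all libraries and 1.15 without the 3 libraries with high Alb. The Sca-1+ libraries of the series had 153 to 294 CPM of it.

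Genes of the differentiating epidermis and the upper follicle were mostly higher in tdT+ without passing. Of 20 differentiation genes, 18 were higher, with a median of 1.13, and groups did not overlap for 9 (5.07% of all genes). None passed in edgeR, where 9 had an unadjusted p under 0.05, while DESeq2 called 5 and voom 2. Klk7, a peptidase that sheds cornified cells, had 40.1, 47.5 and 47.0 CPM in tdT+ and 21.3, 19.5 and 21.6 CPM in tdT- (adjusted p 0.118). Sprr1a, a cornified envelope protein, had 105, 94.4 and 131 CPM in tdT+ and 69.2, 49.0 and 33.6 CPM in tdT- (adjusted p 0.186). Krt10, a keratin of suprabasal cells, had 1225, 2308 and 697 CPM in tdT+ and 774, 101 and 170 CPM in tdT-, with overlapping groups. The median of this list was 0.85 without the library labelled tdT+ replicate 2 and 0.43 without the 3 libraries with high Alb. Among 15 upper follicle and sebaceous genes, 10 were higher and the median was 0.36 (0.60 without the 3 libraries with high Alb). None passed in edgeR, with 4 higher and 1 lower at an unadjusted p under 0.05, and DESeq2 called those numbers too and voom 0. Krt79, a keratin of the infundibulum and the sebaceous duct, had 895, 444 and 1043 CPM in tdT+ and 358, 203 and 257 CPM in tdT- (adjusted p 0.126). Its log2 fold change was 1.54 with all libraries and 1.76 without the 3 with high Alb, where the adjusted p was 0.0296. Cst6, a cystatin of the infundibulum and cornified layer, had 252, 117 and 266 CPM in tdT+ and 80.3, 53.0 and 82.7 CPM in tdT-, with an adjusted p of 0.135 over all libraries and 0.0361 without those 3. For both genes the library labelled tdT+ replicate 2 was the lowest of the tdT+ group.

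Among the genes that fell, Pappa encodes a metalloproteinase that cleaves IGF-binding proteins and so frees IGF (chr4:65124174-65357509). It had 23.4, 14.9 and 25.4 CPM in tdT+ and 66.4, 96.3 and 72.7 CPM in tdT-, a fall of 1.89 ± 0.27 on the log2 scale with an adjusted p of 0.0404. Genes of its substrates did not pass. The binding protein gene Igfbp4 had 677, 296 and 436 CPM in tdT+ and 326, 554 and 346 CPM in tdT- (adjusted p 0.892), and Igfbp5 had 89.3, 59.0 and 126 CPM in tdT+ and 117, 88.0 and 143 CPM in tdT- (adjusted p 0.903). Of 13 IGF genes tested, 9 were higher and the median was 0.10, which was -0.0276 without the library labelled tdT+ replicate 2 and -0.27 without the 3 libraries with high Alb. Ampd3, an AMP deaminase of purine turnover (chr7:110768206-110812405), had 79.2, 68.1 and 66.5 CPM in tdT+ and 168, 140 and 146 CPM in tdT-. It fell by 1.08 ± 0.16 on the log2 scale, with an adjusted p of 0.0404, and its values were tight within each group. Of 13 purine salvage genes, 4 were higher, the median was -0.15 and only Ampd3 passed.

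No gene of the bulge list passed in edgeR, where 1 was higher and 5 lower at an unadjusted p under 0.05, while DESeq2 called 2 lower and voom 3. Of its 25 genes, 16 were lower in tdT+, the median was -0.22 and groups did not overlap in the lower direction for 8 (10.9% of all genes). Sfrp1, a secreted WNT antagonist of resting bulge cells, had 650, 519 and 780 CPM in tdT+ and 1494, 1906 and 1673 CPM in tdT-. Its log2 fold change was -1.38, with an adjusted p of 0.172 by edgeR, 0.00358 by DESeq2 and 0.0408 by limma voom. Npnt, the matrix protein nephronectin that bulge cells lay down, had 121, 105 and 145 CPM in tdT+ and 234, 277 and 286 CPM in tdT- (adjusted p 0.209). Lgr5, a receptor of follicle stem cells, had 173, 101 and 204 CPM in tdT+ and 359, 217 and 387 CPM in tdT- (adjusted p 0.515), and the factor gene Sox9 had 442, 364 and 833 CPM in tdT+ and 668, 551 and 730 CPM in tdT- (adjusted p 0.894). The bulge list summed to 18462, 24603 and 29810 CPM in tdT+ and 31225, 26251 and 35029 CPM in tdT-, so tdT+ replicate 3 lay within the tdT- range. Basal keratinocyte genes were lower for 12 of 14, with a median of -0.27 (-0.0971 without the 3 libraries with high Alb). None passed by edgeR, DESeq2 or voom, and 1 had an unadjusted p under 0.05 in edgeR. Krt14, a keratin of basal cells, had 3114, 3709 and 2615 CPM in tdT+ and 3856, 5010 and 3884 CPM in tdT- (adjusted p 0.629), and the integrin gene Itga3 had 217, 248 and 261 CPM in tdT+ and 377, 456 and 344 CPM in tdT- (adjusted p 0.316). The leukocyte and hepatocyte lists differ between the same libraries, and their part in these values was not tested.

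**Figure D3:**
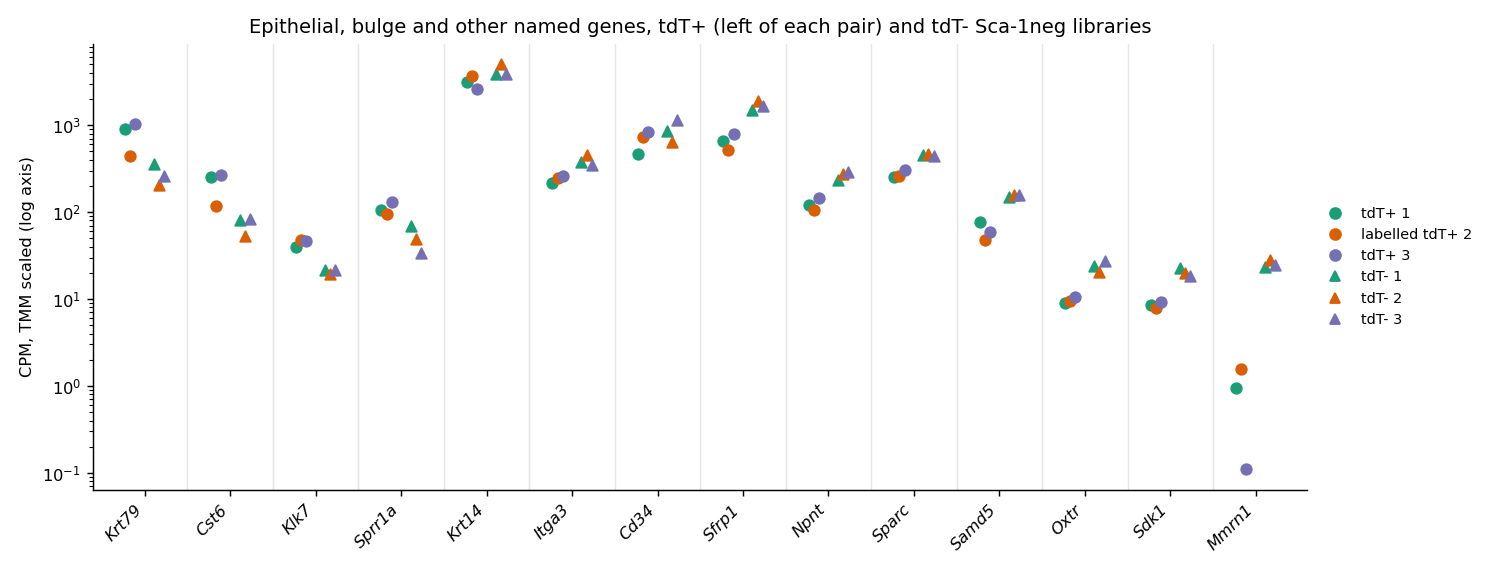
CPM scaled by TMM on a log axis for 14 epithelial, bulge and other named genes, with tdT+ libraries as circles to the left and tdT- libraries as triangles to the right of each pair, coloured by replicate number. Krt79, Cst6, Klk7 and Sprr1a are higher in all 3 tdT+ libraries and Sfrp1, Npnt and Mmrn1 lower, while the groups of Cd34 overlap.

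Further genes passed an adjusted p of 0.05 in both other tools. DESeq2 called 432 genes (2.24%) and voom with sample quality weights 344 (1.69%), and they shared 123, with 92 higher and 31 lower, which included 9 of the 13. The voom median log2 fold change was 8.755 for hepatocyte genes, against 1.34 in edgeR. For liver sinusoid and Kupffer cell genes it was 5.866 against 0.84, and for macrophage and monocyte genes 4.66 against 2.05. Under the voom weights the groups thus differed more in liver transcripts. The part of that in the voom calls and in the 123 shared genes was not tested. DESeq2 called all 13, while in voom Cd3e (adjusted p 0.0679), Cxcr6 (0.0845) and Jaml (0.0530) were among the 4 that missed the threshold. Selplg, the leukocyte ligand of selectins, had 23.7, 17.1 and 6.78 CPM in tdT+ and 0.517, 1.40 and 0.415 CPM in tdT- (adjusted p 0.115 by edgeR). Trat1, an adaptor of the T cell receptor, had 4.58, 7.39 and 7.27 CPM in tdT+ and 0.641, 0.132 and 1.10 CPM in tdT- (adjusted p 0.124 by edgeR). Arhgap45, a GTPase-activating protein of blood cells, had 16, 20.8 and 11.4 CPM in tdT+ and 1.41, 3.44 and 0.951 CPM in tdT- (adjusted p 0.0781 by edgeR). Slfn4 and Ifitm6, which belong to families with near copies and are known in myeloid cells, had log2 fold changes of 3.0 and 3.56, with adjusted p-values of 0.137 and 0.264 by edgeR.

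On the lower side, Mmrn1, a multimerin of platelets and of lymphatic endothelium, had 0.952, 1.55 and 0.110 CPM in tdT+ and 23.3, 28.0 and 24.4 CPM in tdT-. Its log2 fold change of -4.84 missed the threshold in edgeR (adjusted p 0.288), and the adjusted p was 0.00295 in DESeq2 and 0.0390 in voom. The 3 tdT- values were alike at high and low Alb. Flt4, the receptor of lymphatic endothelium for VEGFC, which was chosen after its values were seen, did not track it, with 44.3, 10.6 and 0.716 CPM in tdT+ and 8.88, 27.8 and 10.1 CPM in tdT-. Oxtr, the oxytocin receptor, had 8.88, 9.53 and 10.6 CPM in tdT+ and 24, 20.6 and 27.6 CPM in tdT- (adjusted p 0.137 by edgeR). Sdk1, a synaptic adhesion protein, had 8.57, 7.87 and 9.20 CPM in tdT+ and 22.7, 20.03 and 18.4 CPM in tdT- (adjusted p 0.338 by edgeR). Samd5 had 77.9, 47.9 and 59.2 CPM in tdT+ and 149, 155 and 158 CPM in tdT- (adjusted p 0.186 by edgeR), while Dlg4, a synaptic scaffold, and Scrg1 had log2 fold changes of -1.33 and -1.54, with adjusted p-values of 0.155 and 0.489 by edgeR.

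Other cell types were concentrated in some of the libraries. Of 20 endothelial genes, 19 were higher in tdT+ with a median of 2.26, but the summed level was 228, 1652 and 17.0 CPM in tdT+ and 68.4, 276 and 90.4 CPM in tdT-. Without the library labelled tdT+ replicate 2 the median was -0.46, and without the 3 libraries with high Alb -2.59. The adhesion molecule gene Pecam1 had 5.21, 175 and 1.05 CPM in tdT+ and 7.98, 19.6 and 10.3 CPM in tdT-. Vwf, which encodes von Willebrand factor and was chosen after its values were seen, had 4.08, 433 and 4.30 CPM in tdT+ and 1.55, 18.1 and 12.5 CPM in tdT-. Cldn5, a claudin of endothelial junctions, was higher in no tdT+ library, with 0.906, 3.27 and 0.0551 CPM in tdT+ and 4.86, 10.8 and 6.44 CPM in tdT- (adjusted p 0.577). Emcn, an endothelial sialomucin, had 0.181, 40.7 and 0.220 CPM in tdT+ and 1.84, 2.93 and 2.34 CPM in tdT-. It had a log2 fold change of 2.53 (adjusted p 0.742) with all libraries and of -3.54 (adjusted p 0.0282) without the library labelled tdT+ replicate 2.

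All 20 hepatocyte genes were higher, with a median of 1.34 (3.19 without the 3 libraries with high Alb) and summed levels of 30874, 14782 and 122 CPM in tdT+ and 15.8, 17818 and 27.1 CPM in tdT-. Of 10 liver sinusoid and Kupffer cell genes, 8 were higher, with a median of 0.84 (2.199 without those 3) and sums of 184, 124 and 10.1 CPM in tdT+ and 17.6, 174 and 11.1 CPM in tdT-. Among 14 macrophage and monocyte genes, 13 were higher with a median of 2.05, which was 0.55 without the library labelled tdT+ replicate 2 and -0.25 without the 3 libraries with high Alb. Adgre1, the macrophage antigen F4/80, had 35.03, 19.7 and 0 CPM in tdT+ and 0.413, 3.30 and 0.317 CPM in tdT-. Of 14 Langerhans and dendritic cell genes, 13 were higher with a median of 1.65, which was 0.62 and 0.81 in the same 2 settings. H2-Aa, an MHC class II chain, had 37.6, 65.6 and 16.3 CPM in tdT+ and 6.69, 13.8 and 3.07 CPM in tdT- (adjusted p 0.315), without overlap. No gene of these 5 lists passed in edgeR. At an unadjusted p under 0.05 it had 3 endothelial genes and 5 Langerhans and dendritic cell genes and 0 of the other lists, DESeq2 called 1 and 3 of those lists, and voom 1 and 2. By the unadjusted rule voom had 15 hepatocyte, 7 liver sinusoid and Kupffer cell and 2 macrophage and monocyte genes, all higher. DESeq2 had 0, 0 and 4 of these, and neither tool called any of them. The T cell medians were 2.80 and 2.68, the effector medians 2.58 and 2.40 and the pan-leukocyte medians 2.10 and 2.62 in those settings. The part of these other cell types in the genes called was not tested.

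**Figure D4:**
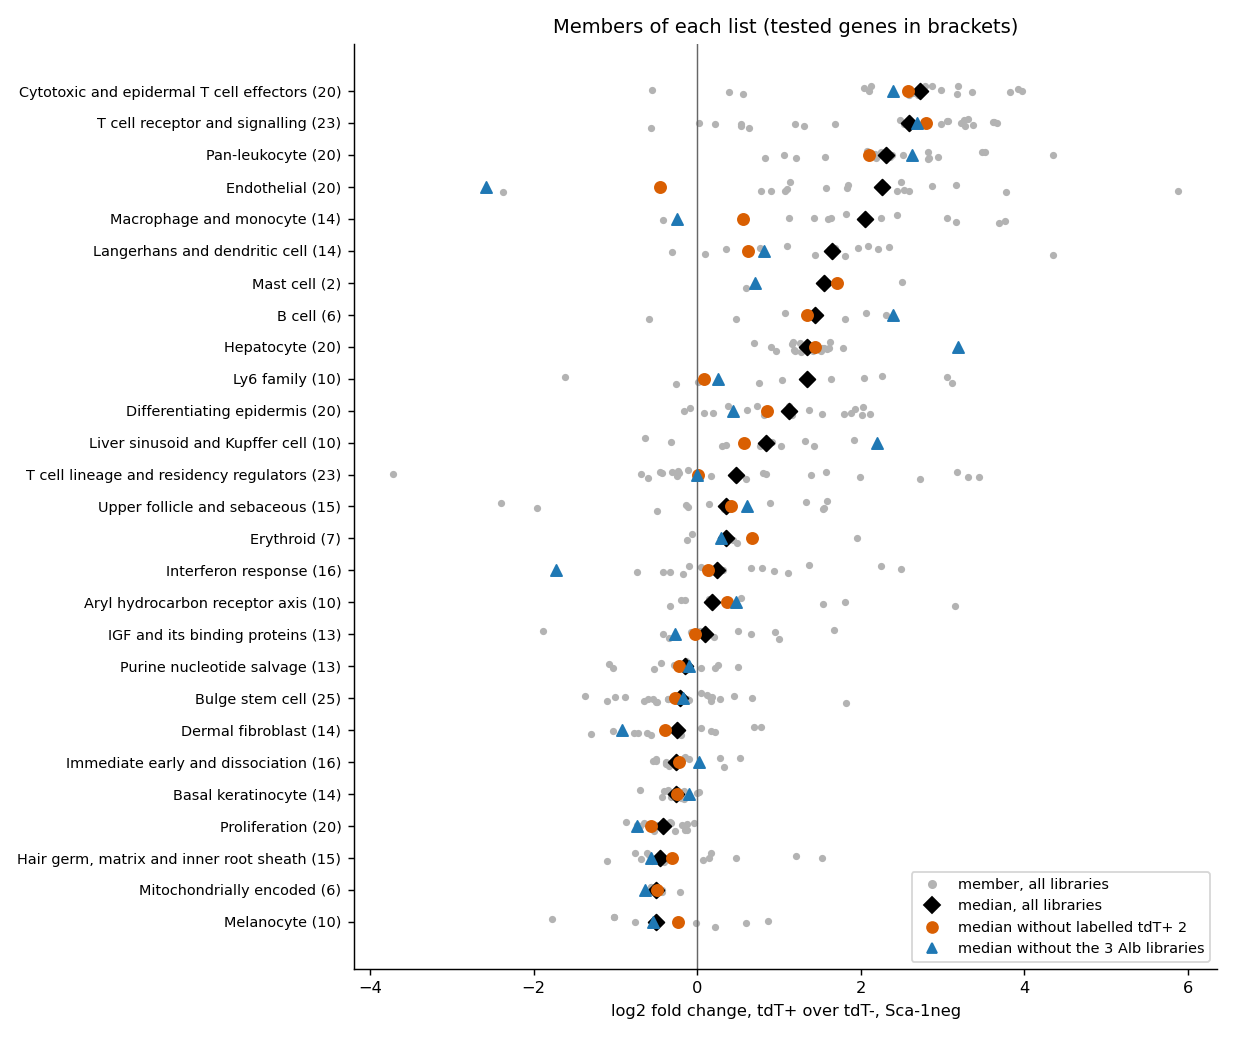
Log2 fold change of tdT+ over tdT- in the Sca-1neg gate for each tested gene of 27 lists (grey), with the median over all libraries (black), without the library labelled tdT+ replicate 2 (orange) and without the 3 libraries with high Alb (blue). The T cell, effector and pan-leukocyte medians stay between 2.10 and 2.80 in all 3 settings, while the endothelial median is 2.26, -0.46 and -2.59.

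Leaving out libraries set how many genes were called. Without the library labelled tdT+ replicate 2, 2 genes passed (0.00981%), Akna higher and Emcn lower, with 1486 at an unadjusted p under 0.05, and the other 12 of the 13 had adjusted p-values from 0.0505 (Ly6d) to 0.158 (Ampd3). On those libraries DESeq2 called 270 genes, all 13 among them, and voom called 0, with 1338 at an unadjusted p under 0.05. Without the 3 libraries with high Alb, 38 genes passed (0.177%), 22 higher and 16 lower, 6 of the 13 among them, with 1 tdT+ library left. Among the genes named for that fit, Rgs1, a regulator of G protein signalling in lymphocytes, had 8.48, 30.2 and 27.6 CPM in tdT+ and 3.60, 0.608 and 2.24 CPM in tdT-, and Dock10, a guanine nucleotide exchange factor, had 17.1, 15.7 and 6.94 CPM in tdT+ and 0.765, 5.47 and 0.781 CPM in tdT-. Their adjusted p-values in that fit were 0.0109 and 0.00622. Leaving out tdT- replicate 3 left 0 calls by edgeR, with 1001 at an unadjusted p under 0.05, leaving out tdT+ replicate 3 left 7, and leaving out Sca-1+ tdT+ replicates 2 or 3, which enter through the shared spread, left 3 or 1. Within the 32-week libraries alone edgeR called 0 genes, with 747 at an unadjusted p under 0.05, and the 29-week libraries number 1 per group. All 13 genes kept their direction in every setting run. Their groups do not overlap, so leaving out libraries could hardly turn a sign, and this is no separate check of them.

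**Figure D5:**
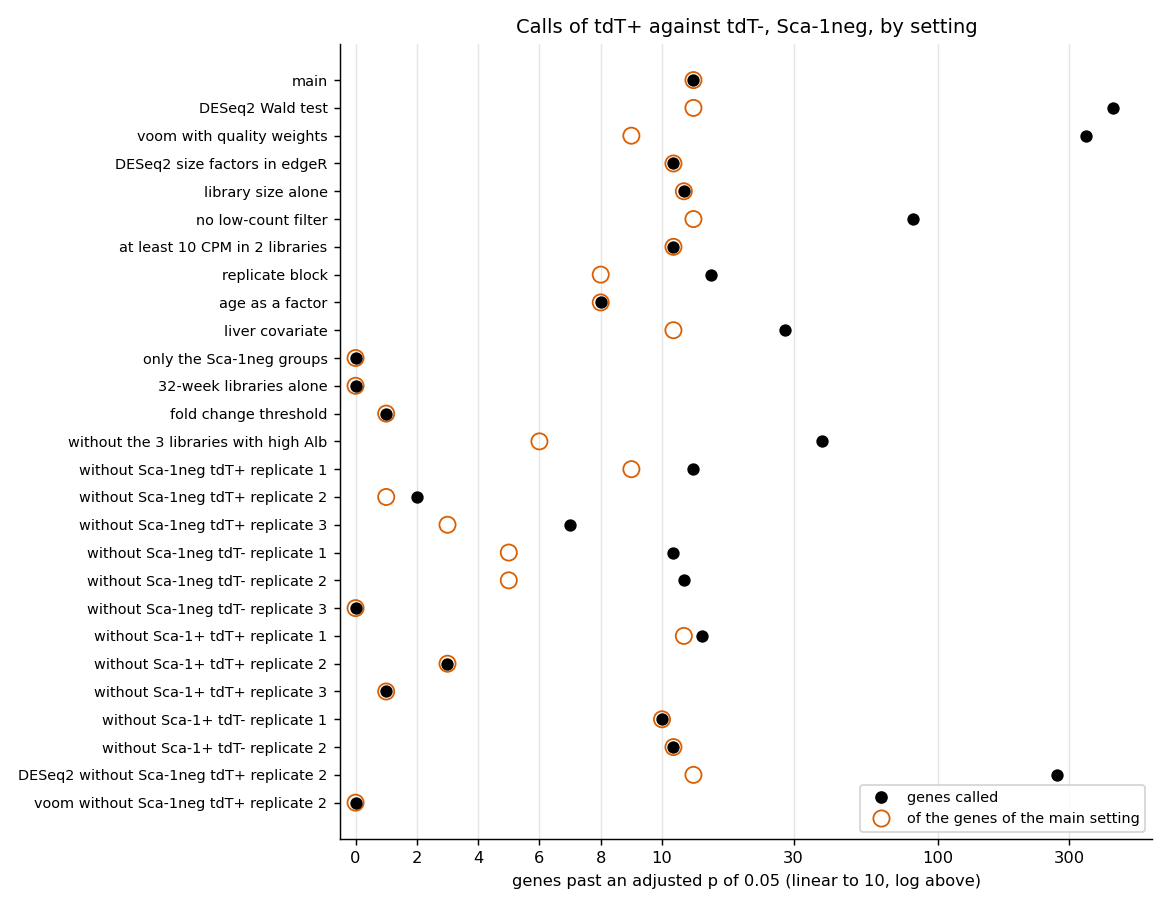
Number of genes past an adjusted p of 0.05 in each setting (black, linear to 10 and log above) and how many of the 13 genes of the main setting are among them (orange rings). The counts run from 0 to 432, and the setting without the library labelled tdT+ replicate 2 has 2.

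The same contrast in the Sca-1+ gate used other libraries, 3 tdT+ and 2 tdT-, and the tracer stood in all 3 tdT+ libraries at 224 to 307 CPM. All 13 genes had the same sign there, against 48.6% of all genes, and 8 passed the threshold there too, where 2.74% of all genes passed, although both contrasts share one estimate of the spread. Cxcr6 had 24.8, 52.4 and 51.1 CPM in tdT+ cells of that gate and 4.398 and 3.06 CPM in its tdT- cells, a log2 fold change of 3.52 with an adjusted p of 0.00195. Cd7 had 52.4, 111 and 81.5 CPM in tdT+ cells of that gate and 13.2 and 12.2 CPM in its tdT- cells, with an adjusted p of 0.00452. Ampd3 had 34.2, 29.8 and 26.2 CPM in tdT+ cells of that gate and 55.1 and 71.2 CPM in its tdT- cells, a log2 fold change of -1.07 with an adjusted p of 0.00731. The genes that did not pass there were Pappa, with a log2 fold change of -0.64 and an adjusted p of 0.346, Cytip (1.19, adjusted p 0.227), Cd163l1 (1.66, adjusted p 0.114), Akna (1.24, adjusted p 0.110) and Ahr (0.81, adjusted p 0.0890). The T cell receptor list summed to 80.3, 105 and 102 CPM in Sca-1neg tdT+ and to 43.1, 42.8 and 41.8 CPM in Sca-1neg tdT-. In the Sca-1+ gate the sums were 595 to 1504 CPM in tdT+ and 177 to 205 CPM in tdT-. Thy1, whose groups overlap, gave 16.9, 38.4 and 18.8 CPM of the Sca-1neg tdT+ sums and 23.8, 18.0 and 21.8 CPM of the tdT- sums. For none of the 13 did the difference between the gates pass the threshold, and the lowest adjusted p of that difference was 0.0602, for Akna.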

How the data were processed

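Per the labels' protocols, RNA of sorted cells was made into TruSeq RNA v2 libraries. The authors deposited raw counts per gene, 1 file per library, and the submitters' processing notes name bcl2fastq 2.20.0.422, FastQC, STAR, featureCounts, DESeq2 1.18.1 and mm10. The annotation release, the strandedness of counting and the handling of multimapping reads were not given in the sources used here, which leaves overlapping genes and near copies uncertain. All 55536 identifiers matched GENCODE M21 symbols. The 1 entry that is no Ensembl gene was read as the tracer and kept out of gene tests.

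The tests used edgeR 4.0.16 in R 4.3.3: TMM scaling, filterByExpr by group, and glmQLFit (robust) with glmQLFTest over all 11 libraries and 4 group means, with 7 residual degrees of freedom. Fold changes are tdT+ over tdT-, and SE is the absolute log2 fold change over the root of F. DESeq2 1.42.0, voom of limma 3.58.1 and 24 alternatives in all were run. No library was a copy of another, since over 55 pairs the chi-square of counts per degree of freedom was 51.4 or more. Members, the 27 lists (387 of 404 genes tested) and tests were chosen with earlier results of these data known. Named genes are the called genes, of which 1 is not reported here, the lowest p-values of each list, the sort markers and Cd4, up to 8 genes per direction called by both other tools with a mean of at least 5 CPM, and genes called on fewer libraries. Further list members were picked as known markers after their values were seen.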

Additional observations from a re-analysis of the deposited data

Results flagged for a closer look

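The tdT effect, tdT+ over tdT-, was compared between the Sca-1neg and the Sca-1+ gate by an interaction test in edgeR over all genes. Of 20307 genes tested, 98 passed an adjusted p of 0.05. Among the 76 named genes there were 6, for each of which the effect in the Sca-1neg gate minus that in the Sca-1+ gate is given on the log2 scale. Except for Cd34, they were named for their p-values or fold changes in the Sca-1neg gate, which enter this difference. Cd34 differed by 3.315 ± 0.412 (SE), with an adjusted p of 0.00694. It had 24.3, 35.7 and 22.3 CPM in tdT+ cells of the Sca-1+ gate and 320 and 383 CPM in its tdT- cells, although both were sorted as CD34+. Sparc, a matrix protein, differed by 1.824 ± 0.227, with an adjusted p of 0.00694. It had 254, 262 and 303 CPM in tdT+ cells of the Sca-1neg gate and 452, 468 and 436 CPM in its tdT- cells, and 66.6, 67.2 and 54.3 CPM in tdT+ cells of the Sca-1+ gate against 318 and 418 CPM in its tdT- cells.

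Klk7 differed by 1.642 ± 0.303, with an adjusted p of 0.0457, and had 41.5, 76.2 and 67.6 CPM in tdT+ cells of the Sca-1+ gate and 82.7 and 96.0 CPM in its tdT- cells. The histamine-forming enzyme gene Hdc differed by 6.13 ± 0.925, with an adjusted p of 0.0221. It had 6.71, 18.6 and 4.96 CPM in tdT+ cells of the Sca-1neg gate and 1.47, 2.67 and 1.20 CPM in its tdT- cells, and 2.42, 7.21 and 2.37 CPM in tdT+ cells of the Sca-1+ gate against 36.6 and 61.9 CPM in its tdT- cells. Sox17, an endothelial factor, differed by 9.811 ± 1.52, with an adjusted p of 0.0210. It had 0.770, 5.03 and 0.661 CPM in tdT+ cells of the Sca-1neg gate and 0.0207, 0.0793 and 0 CPM in its tdT- cells, and the Sca-1+ tdT- libraries had 14.8 and 16.7 CPM of it. Slfn4 differed by 5.274 ± 0.815, with an adjusted p of 0.0259, and had 10.95, 18.4 and 17.8 CPM in tdT+ cells of the Sca-1+ gate and 59.9 and 92.3 CPM in its tdT- cells. The Sca-1+ tdT- libraries summed to 6977 and 7579 CPM over the endothelial list, against 111 to 230 CPM in Sca-1+ tdT+, and the part of this in these differences was not tested.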

How the results depend on the processing

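All 13 genes, whose groups do not overlap, kept their direction in every alternative, but the count of calls moved from 13. DESeq2 called 432, voom 344, edgeR without a low-count filter 81 and with the summed hepatocyte list as a covariate 28, with 11 of the 13 among those 28. With age as a factor 8 were called, with only the Sca-1neg groups in the fit 0 (1441 at an unadjusted p under 0.05), with 32-week libraries alone 0, against a fold threshold 1, and without the 3 libraries with high Alb 38. DESeq2's size factors gave 11 calls, 11 higher and 0 lower. Leaving out 1 library gave 0 to 14. Chosen after seeing the data, DESeq2 without the library labelled tdT+ replicate 2 called 270 and voom 0. The cause of these shifts was not tested. Depth limits the low genes, since at an equal CPM a gene had fewer counts in the tdT+ libraries.

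The replicate number as a block gave 15 calls, 14 higher and 1 lower, 8 of them among the 13. Deviations of same-numbered libraries correlated at -0.514, 0.376 and 0.705 for replicates 1, 2 and 3. Both tdT+ libraries with high Alb correlated positively with tdT- replicate 2 alone (0.613 for tdT+ replicate 1), and tdT+ replicate 3 with tdT- replicates 1 and 3 alone. These values follow the split by Alb, so they cannot show whether equal numbers share mice. The labels do not say so either, and the block was run as an alternative only. Flt4 had a log2 fold change of -0.0573 with the block.

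Over the 76 named genes and all alternatives, 1561 values kept direction and side of the threshold, 149 fell below it, 81 passed it and 21 changed sign. Without the 3 libraries with high Alb, the log2 fold change was -6.455 for Adgre1, -2.62 for Ifit3, -0.42 for Gbp2, -3.22 for Emcn, -3.715 for Flt4 and -0.70 for Vwf. With the liver covariate it was -0.10 for Alas2, -0.19 for Cps1 and -1.925 for Flt4. In 32-week libraries alone it was -0.62 for Alas2, -0.21 for Cps1, 0.0615 for Itga6 and -1.75 for Flt4. It was -0.16 for Cd4 with voom and -0.0317 for Flt4 with age as a factor. Leaving out 1 library, it ran from -0.46 to 0.97 for Alas2, from -3.54 to 3.11 for Emcn, from -1.47 to 0.98 for Flt4 and from -1.35 to 4.39 for Vwf. Emcn and Vwf changed sign without the library labelled tdT+ replicate 2, Alas2 without tdT+ replicate 1, and Flt4 without tdT+ or tdT- replicate 1.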

Other observations

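Some groups of genes that bear on cell state were described by no result above. All 20 proliferation genes were lower in tdT+, with a median log2 fold change of -0.42. Mcm2, a subunit of the replicative helicase, had 36.8, 34.7 and 37.4 CPM in tdT+ and 51.0, 54.6 and 48.9 CPM in tdT- (adjusted p 0.515), and Mki67 had 121, 134 and 82.0 CPM in tdT+ and 146, 96.0 and 127 CPM in tdT-, which overlapped. The 6 mitochondrially encoded genes tested were all lower, with a median of -0.50, and mt-Co2, mt-Atp6 and mt-Co3 were listed at 0 in all 6 libraries. The respiratory chain gene mt-Nd4 had 1644, 1591 and 1692 CPM in tdT+ and 2220, 2162 and 2938 CPM in tdT- (adjusted p 0.322). Immediate early genes, which dissociation can induce, were higher for 3 of 16, with a median of -0.27. The AP-1 gene Jun had 1334, 1322 and 1968 CPM in tdT+ and 2263, 2258 and 2063 CPM in tdT- (adjusted p 0.515).

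Hair germ, matrix and inner root sheath genes were higher for 6 of 15, with a median of -0.45, and dermal fibroblast genes for 5 of 14, with a median of -0.24. Melanocyte genes were higher for 3 of 10 tested, with a median of -0.50, and Sox10, a factor of that lineage, had 1.72, 0.268 and 0.220 CPM in tdT+ and 2.79, 2.30 and 2.59 CPM in tdT- (adjusted p 0.698). Interferon response genes were higher for 11 of 16, with a median of 0.25 that was -1.73 without the 3 libraries with high Alb. B cell genes were higher for 5 of 6 tested (median 1.44) and erythroid genes for 5 of 7 (median 0.35). Both mast cell genes tested, Hdc and Kit, were higher (median 1.55), and Kit is also on the melanocyte list. The mast cell protease genes Cpa3, Mcpt4, Cma1 and Tpsb2 did not pass the count filter. They had 0.770 CPM or less in all 6 libraries, and none was higher in all 3 tdT+ libraries. Without the library labelled tdT+ replicate 2 the medians were -0.56 for proliferation, -0.39 for fibroblast, -0.24 for melanocyte, 0.13 for interferon response and 0.67 for erythroid genes. Without the 3 libraries with high Alb they were -0.73 for proliferation, -0.92 for fibroblast, 0.02 for immediate early, 2.40 for B cell and 0.70 for mast cell genes. No gene of these 10 lists passed the threshold in edgeR. At an unadjusted p under 0.05 it had 2 proliferation, 4 mitochondrial, 3 immediate early, 1 fibroblast and 1 mast cell gene and 0 of the others. DESeq2 called 1 fibroblast and 1 mast cell gene, and voom those numbers and 1 immediate early and 1 B cell gene.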
